A study of Homo sapiens with 2 samples.

Results

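ANGPTL4, its angiopoietin-like relatives, the angiopoietins, the TIE receptors and the lipase LPL were followed in parental and drug-selected melanoma A2058 cells. The group held 9 genes chosen by name, and every probe that the array's annotation assigned to them was used. This gave 13 of the 47323 probes on the array, covering 7 of the 20046 genes with a named probe. ANGPTL1 and ANGPTL2 had no named probe and were not analysed here. A2058 is a cell line of human melanoma, long in laboratory use. Its drug-selected form had survived repeated rounds of carmustine, an alkylating drug that joins DNA strands, and the labels give a concentration of 100 uM over 6 months. By the methods, 100 uM was the final level, reached by gradual increase, and cells regrew without the drug between rounds. The parental cells were carried along in culture without the drug. RNA of each population was hybridised to 1 Illumina bead array, so no difference has a replicate check and none is given a p-value. Precision is limited by having 1 array for each population.

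Angiopoietins and most angiopoietin-like proteins share a fibrinogen-like domain, and both kinds of protein are secreted. The angiopoietins bind TEK, a receptor tyrosine kinase of endothelial cells also known as TIE2. ANGPT1 activates it, ANGPT2 often opposes ANGPT1, and TIE1 is its partner receptor. The angiopoietin-like proteins do not bind TEK. ANGPTL4 inactivates LPL, the lipase that releases fatty acids from lipoproteins in blood vessels, and it also binds heparan sulfate and integrins. It is known to be induced by fasting, by hypoxia and by fatty acids through the PPAR nuclear receptors.

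Among these genes, RNA of ANGPTL4 and TEK was higher in drug-selected cells, that of ANGPT1 was moderately higher within 2-fold, and that of LPL differed little. Over 8 ways of processing ANGPTL4 was at least 4.13-fold higher by the probe ILMN_1707727, but its other 2 probes did not pass 2-fold. Both TEK probes were higher, by at least 3.04-fold for one and at least 3.21-fold for the other. ANGPT2, TIE1 and ANGPTL6 were not well above background on either array. The study had already singled out ANGPTL4 on these arrays, so its difference is a description and not independent evidence. Apart from the arrays, the paper reported more ANGPTL4 in drug-selected cells by qPCR and, as protein, by western blot and flow cytometry. Those measurements were not examined here.

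The average signal is the mean brightness of the beads of a probe, before normalization. The methods mention that a background was subtracted for each bead, but the lowest signals were 25.7 and 30.5, so background may remain in these signals and in their ratios. A probe was called detected where its detection p-value, computed on the authors' scanner against negative control beads of the same array, was under 0.05. The drug-selected array was the brighter one, with a median signal of 63.1 against 52.5, and 45.6% of its probes were detected against 42.5% of the parental array. For comparison, signals were corrected for background, quantile normalized and expressed as log2. A probe was called higher when its fold, drug-selected over parental, exceeded 2 and lower when it was under 0.5. Where only 1 array detected a probe, its fold was given as a minimum, in which the dim side was set to the higher of its own value and the lowest value among detected probes. This minimum was computed under each of the 8 ways of processing, and the lowest of the 8 is the one stated as "at least". Melanocytic markers were checked against the label. Of 9 with a named probe, 8 were detected on both arrays, S100B was not detected, and 6 were lower in drug-selected cells. The summed signal of the list was 41694.5 in parental cells against 6543.7 after selection. Among the lower genes, MITF was lower by 1 of its 2 probes, and TYRP1 and GPM6B came inside 2-fold in some settings, with log2 differences up to -0.69 and -0.79. Over all 12832 detected genes, each by its brightest detected probe, 7.12% were higher and 5.84% were lower. The part of these markers in the results below was not tested.

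Of the 13 probes, 4 were detected on both arrays, 3 on the drug-selected array only, none on the parental array only and 6 on neither. Of the 7 detected probes, 3 were higher and none was lower. Over all 23307 detected probes, 5.84% were higher and 5.07% were lower. The 3 higher probes were those detected on the drug-selected array only, 1 of ANGPTL4 and both of TEK. Over all 3213 probes of that kind, 15.1% were higher, against 4.77% of those detected on both arrays.

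**Figure D1:**
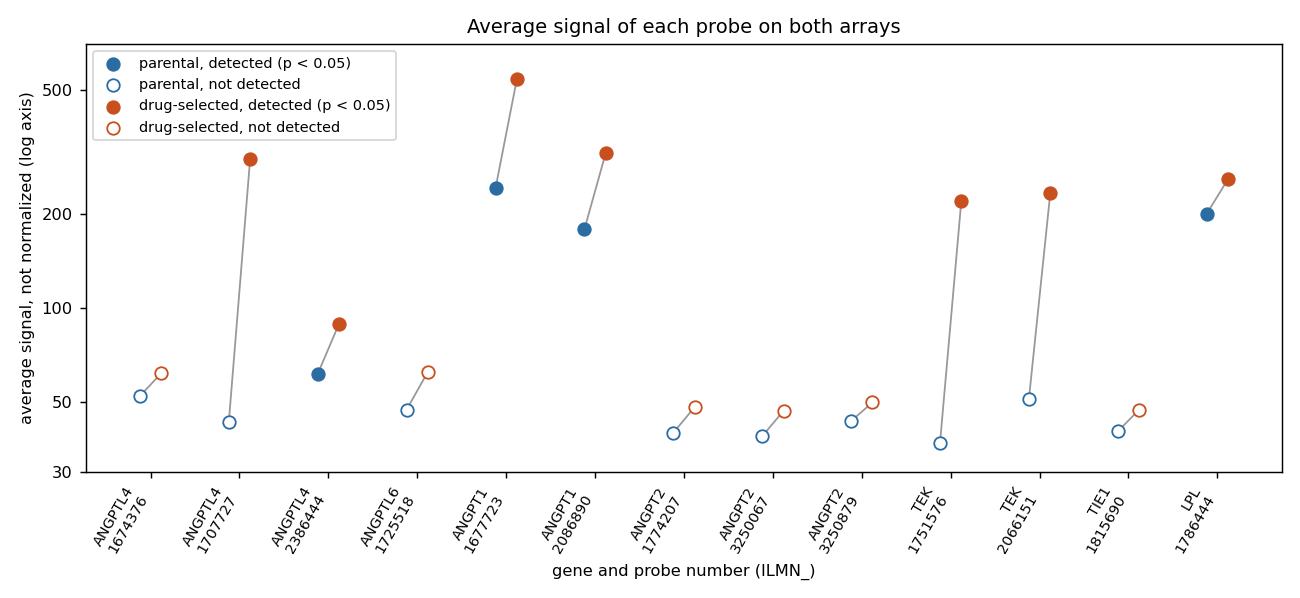
Average signal of each of the 13 probes (horizontal axis, gene and probe number) on the parental array (blue) and the drug-selected array (orange), on a log axis, with filled points for detected probes and open points for probes not detected, 1 array per group. The ANGPTL4 probe ILMN_1707727 had signals of 43.3 and 300.7 and the TEK probes had 37.1 and 221.0, and 51.3 and 233.0, while the points of ANGPT2 and TIE1 are all open.

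The sequence just upstream of the transcription start is shown for ANGPTL4 and TEK because these genes were not well above background, by the probes that were higher, in parental cells and were detected in drug-selected cells. Each run gives the 250 bases before the start that RefSeq annotates on GRCh38.p14, 5′ to 3′ on the strand of the gene. ANGPTL4 lies on chromosome 19 (plus strand, chr19:8363905-8364154) and TEK on chromosome 9 (plus strand, chr9:27108975-27109224, the first of 2 starts listed). Capitals mark matches on either strand to TATAAA (the TATA box), ACGTG or GCGTG (the core bound by hypoxia-inducible factors), TGANTCA (the AP-1 element) and GGAA (the core bound by ETS factors).
ANGPTL4: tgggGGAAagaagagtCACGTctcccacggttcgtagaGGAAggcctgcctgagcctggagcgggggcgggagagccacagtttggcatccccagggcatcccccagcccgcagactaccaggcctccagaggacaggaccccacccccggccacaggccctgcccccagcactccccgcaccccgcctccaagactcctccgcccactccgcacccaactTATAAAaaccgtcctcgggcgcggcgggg
TEK: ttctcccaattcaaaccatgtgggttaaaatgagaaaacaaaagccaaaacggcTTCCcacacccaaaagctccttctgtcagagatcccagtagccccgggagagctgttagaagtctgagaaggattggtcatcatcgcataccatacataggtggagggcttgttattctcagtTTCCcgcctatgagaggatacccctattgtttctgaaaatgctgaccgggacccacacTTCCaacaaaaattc

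The ANGPTL4 window held TATAAA once, beginning 29 bases before the start, a sequence found on either strand in 10.7% of 35116 such windows. It held ACGTG once on the opposite strand, 234 to 230 bases before the start, against 18.5% of all windows with at least 1 match. The TEK window held 3 matches to GGAA, which 92.7% of all windows contain, and no match to the other motifs. The ANGPTL4 window was richer in G and C, at 68.8% against 46.4% for TEK and a median of 58.0% over all windows. A match is a description of the letters and not a site of binding, and of the motifs searched the windows shared GGAA alone.

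ANGPTL4 was measured by 3 probes, which differed from each other. For ILMN_1707727, the average signal was 43.3 in parental cells, with a detection p-value of 0.605, and 300.7 in drug-selected cells, with a detection p-value of 0. The authors' normalized values of this probe were 47.7 and 273.1, a fold of 5.72. After background correction and quantile normalization its log2 level was 4.39 in parental and 7.84 in drug-selected cells, a log2 difference of 3.44. Because the parental signal of the probe lay at background, this exact value depends on how the background is treated. The minimum was 7.71-fold in this setting and 4.13-fold as the lowest of the 8, so the probe was at least 4.13-fold higher. The paper's text gave a far larger array increase for ANGPTL4 than the fold of 5.72, without naming the probe.

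The second ANGPTL4 probe, ILMN_2386444, was detected on both arrays but was dim. Its average signal was 61.7 in parental cells (detection p-value 0.0117) and 89.2 in drug-selected cells (detection p-value 0.0013), and its normalized values in the authors' table were 69.9 and 80.2. The log2 difference was 0.36, or 1.28-fold, and 24.8% of the detected probes had a larger one. The third probe, ILMN_1674376, gave signals of 52.4 and 62.0 with detection p-values of 0.126 and 0.117, so neither array had it well above background, and no fold is given. The authors' normalized values for it were 58.0 and 57.1. The annotation assigns ILMN_1707727 and ILMN_1674376 to the same ANGPTL4 transcript, NM_139314, and ILMN_2386444 to NM_001039667. On the arrays, the higher level of ANGPTL4 therefore rested on 1 of its 3 probes, and the 2 probes assigned to the same transcript differed.

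TEK was measured by 2 probes, and both were higher in drug-selected cells. For ILMN_1751576 the average signal was 37.1 in parental cells (detection p-value 0.888) and 221.0 in drug-selected cells (detection p-value 0). For ILMN_2066151 the signals were 51.3 (detection p-value 0.157) and 233.0 (detection p-value 0). Neither TEK probe was detected in parental cells and both were clearly detected in drug-selected cells.

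The authors' normalized values of TEK probe ILMN_1751576 were 41.1 and 197.0, a fold of 4.8. Those of TEK probe ILMN_2066151 were 56.7 and 208.3, a fold of 3.68. On the normalized log2 scale the differences of the TEK probes were 3.04 and 2.76. Their minima were 5.39-fold and 5.74-fold in this setting and 3.04-fold and 3.21-fold as the lowest of the 8, and both probes were past 2-fold in each.

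TEK is a receptor of endothelial cells, and most of the other endothelial markers were not detected. Of 11 such markers, 4 were detected and 7 were not detected on either array, among them the defining genes CDH5, KDR, FLT1, CLDN5 and ERG. Of the 4, only the adhesion molecule PECAM1 was higher, by 2.41-fold, with average signals of 56.9 and 121.1. In the alternative settings its log2 difference went down to 0.74. VWF was detected on both arrays, at a log2 difference of -0.20. By their brightest detected probes, ESAM and CD34 were detected on the drug-selected array only, at 0.58 and 0.13. In some settings ESAM passed 2-fold, with a log2 difference up to 1.25. Over all detected genes 7.12% were higher. The summed average signal of the list was 525.7 in parental and 700.1 in drug-selected cells. The part of these cells in the TEK result was not tested.

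TIE1, the partner of TEK, was well above background on neither array. Its only probe, ILMN_1815690, had signals of 40.4 and 47.4 with detection p-values of 0.76 and 0.765, and normalized values in the authors' table of 44.6 and 43.9. The receptor pair was therefore split, with TEK detected in drug-selected cells and TIE1 not detected in either population.

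Of the TEK ligands, ANGPT1 was detected in both populations and ANGPT2 in neither. For ANGPT1 probe ILMN_1677723 the average signal was 242.0 in parental and 539.8 in drug-selected cells, and the authors' normalized values were 296.7 and 503.0. For ANGPT1 probe ILMN_2086890 the signals were 178.9 and 313.8, and the authors' normalized values were 214.9 and 284.9. All 4 of these signals had a detection p-value of 0.

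The log2 differences of the ANGPT1 probes were 0.81 and 0.45, or 1.76-fold and 1.36-fold. Both lay above 0 in all 8 ways of processing, and larger differences were seen in 8.19% and 19.3% of the detected probes. Neither reached 2-fold after quantile normalization. ILMN_1677723 passed it with no normalization between arrays, at 1.24, and with scaling to the median, at 1.10, settings that left the median of all detected probes at 0.35 and 0.21. Relative to that median the ANGPT1 difference was 0.89 in both.

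ANGPT2 had 3 probes, with average signals of 39.0, 40.0 and 43.6 in parental cells and 47.0, 48.3 and 50 in drug-selected cells. Their detection p-values lay between 0.575 and 0.818, and no fold is given. The authors' normalized values ran from 43.0 to 48.2 in parental and from 43.6 to 46.2 in drug-selected cells, so that the ranges of the arrays overlapped. Pericytes and other mural cells are a known source of ANGPT1. Of 6 pericyte markers, 3 were detected and 2 were higher. Over all detected genes 7.12% were higher. The receptor PDGFRB was at least 3.63-fold higher and ACTA2, an actin of contractile cells, 3.07-fold higher, while RGS5, ABCC9 and DES were not detected. KCNJ8 was instead detected on the parental array only, with signals of 62.4 and 62.7 and a log2 difference of -0.52. The summed signal of that list was 402.8 in parental and 1033.8 in drug-selected cells. Its part in the ANGPT1 result was not tested.

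LPL, the lipase that ANGPTL4 inactivates, was detected in both populations and differed little. Its probe ILMN_1786444 gave signals of 200.6 and 258.7, with detection p-values of 0, and the authors' normalized values were 242.8 and 232.3. The raw signal was brighter on the drug-selected array, as was that array as a whole, and after normalization the log2 difference was -0.07. It turned to 0.37 with no normalization between arrays and to 0.23 with scaling to the median, settings in which the median of all detected probes was 0.35 and 0.21. ANGPTL6, an angiopoietin-like protein linked to vessel growth and energy use, had signals of 47.4 and 62.7 with detection p-values of 0.353 and 0.108, and normalized values of 52.3 and 57.7 in the authors' table. Neither array had it well above background.

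**Figure D2:**
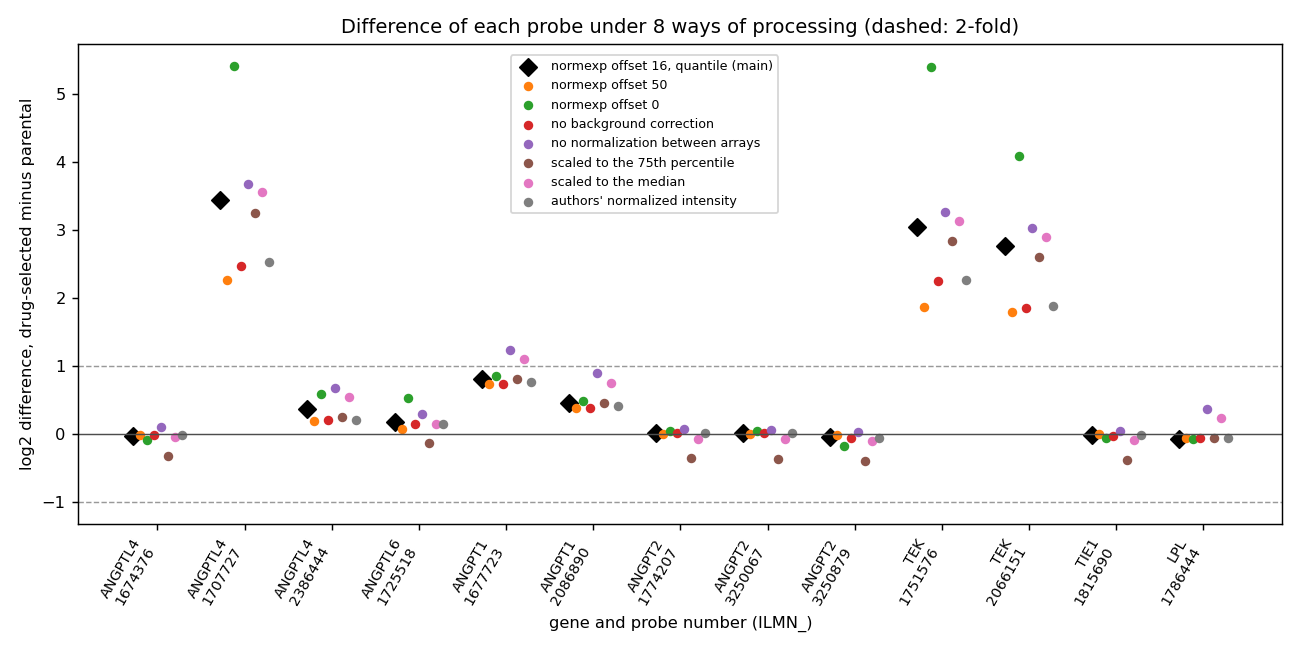
Log2 difference (drug-selected minus parental, vertical axis) of each of the 13 probes under 8 ways of processing, with black diamonds for the values used in the text and dashed lines at 2-fold. ANGPTL4 probe ILMN_1707727 ranged from 2.26 to 5.41 and the TEK probes from 1.79 to 5.39, and all other probes lay between -0.40 and 1.24.

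The size of the ANGPTL4 and TEK differences depended on the background correction, since the parental signal was at background. The minimum for ANGPTL4 probe ILMN_1707727 ranged from 4.13-fold with a normexp offset of 50, a constant added after the correction, to 15.6-fold with an offset of 0. The minima for TEK ranged from 3.04-fold to 11.3-fold over the same settings and both probes. All 3 probes stayed past 2-fold in each of the 7 alternatives.

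**Figure D3:**
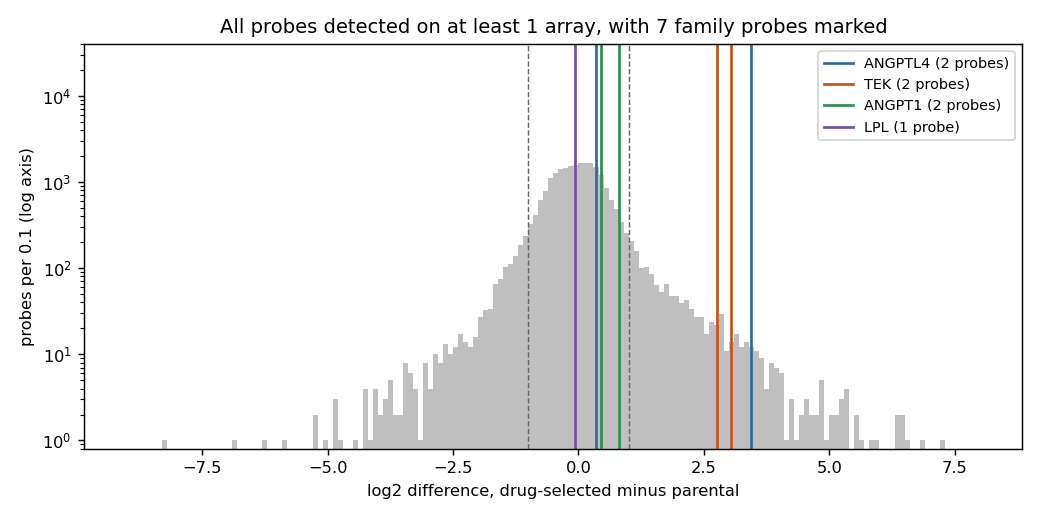
Number of probes (vertical log axis) by log2 difference in bins of 0.1 for all 23307 probes detected on at least 1 array, with the 7 detected probes of the group as coloured lines and 2-fold as dashed lines. The lines of TEK, at 2.76 and 3.04, and of 1 ANGPTL4 probe, at 3.44, lie past 2-fold, at places that depend on the background correction because their parental signal was at background, and those of LPL, ANGPT1 and the second ANGPTL4 probe lie inside 2-fold.

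With 2 arrays, likeness to ANGPTL4 could be measured only as the nearness of the log2 difference. Among genes detected on the drug-selected array only, those nearest to the value of ANGPTL4 were KCNIP1, the cytokine TNF, the cytidine deaminase APOBEC3G, CYP4B1 and EPSTI1. The parental side of all of them was at background, so the order rests on 1 setting and only minima can be given. These were at least 4.17-fold for KCNIP1, 4.27-fold for TNF, 4.26-fold for APOBEC3G, 4.66-fold for CYP4B1 and 4.05-fold for EPSTI1.

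Genes that code for transcription factors known to act on ANGPTL4 were often higher in drug-selected cells. Of 10 such genes, 9 were detected, 6 were higher and 0 were lower. Their median log2 difference was 1.23. Over all detected genes the median was 0.00 and 7.12% were higher. The list was chosen with earlier results of these data known, so this contrast is a description and not independent evidence. PPARG, the fat-cell nuclear receptor, was at least 7.54-fold higher, with average signals of 56.1 and 547.2, and both of its detected probes passed 2-fold. EPAS1, a hypoxia-inducible factor, was 4.52-fold higher, with signals of 135.0 and 676.0, and SMAD3, which relays TGF-beta signals, was 2.98-fold higher, with signals of 204.1 and 736.9. HIF1A was 2.57-fold higher by its brightest probe, with all 3 of its probes past 2-fold, and RXRA, the partner of the PPAR receptors, was 2.35-fold higher. NR3C1, the glucocorticoid receptor, had a log2 difference of 1.06, which went down to 0.58 in the alternative settings, and a minimum of 1.45-fold. PPARA, PPARD and RXRB lay within 2-fold, with log2 differences of 0.48, 0.20 and -0.19, and ARNT was not detected on either array.

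For the next 2 lists, the shares over all detected genes were 7.12% higher and 5.84% lower. Of 8 detected PPAR targets, 2 were higher and 0 were lower, the median being 0.71. PDK4, which restrains glucose oxidation, was 5.72-fold higher, with signals of 622.1 and 4611.5, and FABP4, a fatty acid carrier, was at least 3.60-fold higher, with signals of 42.0 and 262.9. PLIN2, the lipid droplet coat protein, had a log2 difference of -0.23. Of 12 detected hypoxia targets, 3 were higher and 1 was lower, the median being 0.43. NDRG1 was 9.49-fold, BNIP3 2.81-fold and ANKRD37 2.01-fold higher, the last falling to 0.96 on the log2 scale in the lowest setting. ADM, the vessel-dilating peptide adrenomedullin, was 4.24-fold lower, with signals of 7912.2 and 2512.4.

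FABP4 is also a marker of adipocytes, which express ANGPTL4 and LPL. Of 6 adipocyte markers, 4 were detected and FABP4 alone was higher, while ADIPOQ and PLIN1 were not detected on either array. Over all detected genes 7.12% were higher. The summed signal of the list was 591.3 in parental and 869.3 in drug-selected cells. Macrophages also make LPL. Of 6 macrophage markers, 4 were detected and 2 were higher, against 7.12% of all detected genes. These were CD14, by 10.4-fold and by 6.57-fold in the lowest setting, and LYZ by 1 of its 2 probes. The log2 difference of LYZ was 1.01 and went down to 0.55, inside 2-fold, with a minimum of 1.42-fold. AIF1, by its brightest detected probe, was detected on the parental array only, at a log2 difference of -0.64. The summed signal was 1335.0 and 3419.2, mostly from CD68, with signals of 1038.8 and 2506.7 and a log2 difference of 0.89. The defining genes CSF1R and PTPRC were not detected. The part of either cell type in these results was not tested.

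Of 15 genes that handle lipoprotein lipase, 13 had a named probe and 8 were detected. Of these 3 were lower and 0 were higher, with a median of -0.41, against 5.84% lower and 7.12% higher over all detected genes. SORL1, a sorting receptor, was 3.39-fold lower by its brighter probe, with signals of 216.9 and 112.4, and both of its probes were lower past 2-fold. SEL1L, an adaptor of the endoplasmic reticulum needed for LPL maturation, was 2.49-fold lower, and VLDLR, a receptor for triglyceride-rich lipoproteins, was 2.48-fold lower. Both came inside 2-fold in some settings, with log2 differences up to -0.83 for SEL1L and -0.89 for VLDLR. GPIHBP1, which anchors LPL in capillaries, and the apolipoproteins APOC2, APOC3 and APOA5 were not detected on either array.

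Of 4 proprotein convertases, the protease family that cleaves ANGPTL4, 3 were detected and 1, PCSK5, was higher, against 7.12% of all detected genes. PCSK5 was higher by 6.97-fold and by 3.94-fold in the lowest setting. Its signals were 59.2 and 301.4, with a parental detection p-value of 0.0273. FURIN had a log2 difference of 0.20. Of 13 genes for binding partners of ANGPTL4, 9 were detected, with a median of -0.20. By their brightest detected probes, none of the 9 passed 2-fold in either direction, against 7.12% higher and 5.84% lower over all detected genes. Of the 3 detected probes of FN1, 1 was higher past 2-fold, while its brightest had a log2 difference of 0.47. The 9 genes included the integrin subunits ITGB1 and ITGB5, at -0.23 and -0.20. The heparan sulfate carriers SDC1, SDC2, SDC3 and SDC4 lay at 0.16, 0.29, 0.06 and -0.32. By qPCR, the paper reported SDC1 higher and SDC2 lower in drug-selected cells, with no significant difference for SDC4. Those qPCR measurements were not examined here.

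Of 12 genes that act with the TIE receptors, 10 were detected, 1 was higher, 1 was lower and 8 were within 2-fold, with a median of -0.04. These shares are near those over all detected genes, 7.12% higher and 5.84% lower. SVEP1, a matrix protein that binds TIE1, had signals of 43.9 and 142.8 and a log2 difference of 2.11, with a minimum of 1.97-fold. GRB14, an adaptor that binds activated TEK, was 3.08-fold lower by 1 of its 2 probes. PTPRB, the phosphatase that acts on TEK, had a log2 difference of -0.91, with signals of 119.7 and 101.8. Of the remaining ligands of the family, ANGPTL5, ANGPTL8 and ANGPT4 were not detected, and ANGPTL7 was detected on the parental array only, at a signal of 58.4 against 48.5 (detection p-values 0.0273 and 0.73).

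**Figure D4:**
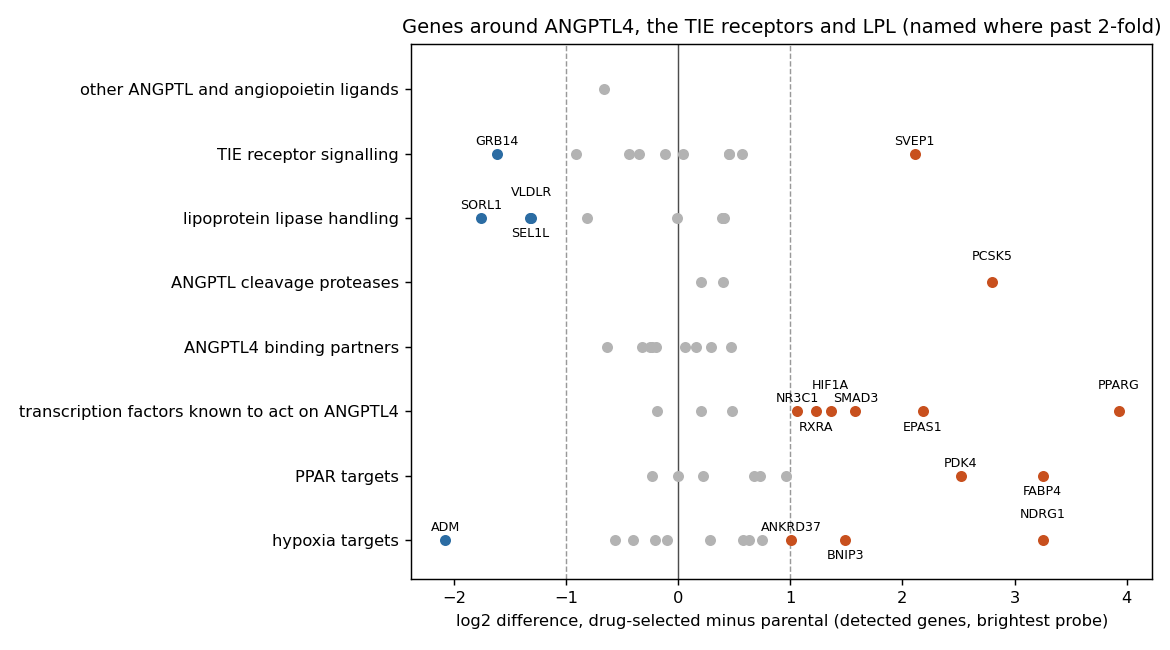
Log2 difference (drug-selected minus parental, horizontal axis) of each detected gene, by its brightest detected probe, in 8 lists of genes around ANGPTL4, the TIE receptors and LPL, with genes past 2-fold (dashed lines) coloured and named. In the list of transcription factors 6 of 9 points lie above 2-fold, and in the list of binding partners all 9 points lie within it. The lists were chosen with earlier results of these data known.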

How the data were processed

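Expression was measured with 1 Illumina bead array of parental and 1 of drug-selected A2058 cells. In the table the authors deposited without normalization, each probe has an average intensity on a linear scale and a detection p-value. The methods mention a subtraction of background per bead without detail, and the lowest values were 25.7 and 30.5, so background may remain and can lower ratios of dim probes. A second table holds the authors' normalized intensity, also linear, with a median of 58.1 on both arrays. How it was normalized was not stated in the sources read. The methods set suspended against adherent cells, which neither label mentions, so folds were taken as drug-selected over parental.

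Signals were corrected by normexp (limma 3.58.1 in R 4.3.3), with an offset of 16 and the background estimated through detection p-values, then quantile normalized and converted to log2. Of 47323 probes, 23307 had a detection p under 0.05 on 1 or both arrays and were kept. The lowest log2 level among detected probes was 4.89 on the parental array and 4.8 on the drug-selected array. The platform annotation gave 1 symbol to 30113 probes, of which 30074 were matched by gene identifier to RefSeq (GRCh38.p14). Each gene of a list was counted by its detected probe of highest mean level, on the normalized values without bounds. Up to 3 genes in each direction were named per list by size, and HIF1A, RXRA, NR3C1 and genes within 2-fold or not detected were named after their values were seen. The members and lists were chosen with earlier results of these data known. Alternatives changed the background correction, the normalization, the detection filter and the threshold. The scripts were tested on simulated data. Counts and figures were made in Python 3.11.15.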

Additional observations from a re-analysis of the deposited data

How the results depend on the processing

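The 3 probes past 2-fold, 1 of ANGPTL4 and 2 of TEK, stayed past it in all 7 alternative settings of the values, and the number of higher probes was 3 or 4 and that of lower probes 0 over 11 alternatives. The log2 difference of ANGPTL4 probe ILMN_1707727 was 3.44. It was 2.26 with a normexp offset of 50, 5.41 with an offset of 0, 2.47 with no background correction and 2.52 in the authors' normalized values. Over all 13 probes and 7 alternatives, 69 of 91 values moved by less than 0.305 and 22 moved by more. The 0.305 is the SD found between probes of the same gene in 2892 genes with 2 or more probes detected on both arrays. The 91 values include those of the 6 probes detected on neither array. All 3 probes past 2-fold moved by more with offsets of 50 and 0, with no background correction and in the authors' normalized values. No value past 2-fold changed its sign. No paired analysis was possible because each group had 1 array. With 1 array per group, leaving out an array was not possible either. Signal near background limits the parental values of ANGPTL4 and TEK, so their folds are minima that move with the background correction, from 7.71 to 4.13 for ANGPTL4 and from 5.39 and 5.74 to 3.04 and 3.21 for TEK with an offset of 50.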
